A study of Mus musculus with 6 samples.

Results

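Of the 55364 genes listed for these lung fibroblasts (LFs), 9 are described here: Aldh2, the retinal dehydrogenases Aldh1a1, Aldh1a2 and Aldh1a3, the enzymes Aldh1l2, Aldh3a2, Aldh9a1 and Aldh18a1, and the retinoic acid binding protein Crabp1. They were selected by gene symbol, with the fold changes of the comparison between genotypes already known, so those fold changes are given as a description and are no independent evidence about the group. All 9 had counts, and 8 passed the filter on low counts (edgeR's filterByExpr). Aldh9a1 did not pass. Primary mouse LFs were held in serum-free medium with 10 ng/ml of TGFβ1 for 24 h, a treatment that turns fibroblasts into contractile, matrix-producing myofibroblasts. There were 3 libraries of wt LFs and 3 of LFs whose label is a knockout of TKS5, the podosome scaffold protein encoded by Sh3pxd2a. The study's text describes these cells as heterozygous, Tks5+/-, from littermates of the wt mice, and no library without TGFβ was analysed here. Nothing in the labels tells whether the 3 libraries of a group came from separate animals or cultures, so p-values measure the spread between libraries only.

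Aldehyde dehydrogenases oxidize reactive aldehydes to carboxylic acids. Retinol from the diet is oxidized first to retinal by retinol dehydrogenases and then, irreversibly, to retinoic acid by the Aldh1a enzymes, after which retinoic acid binds nuclear receptors or is hydroxylated by Cyp26 enzymes. Other family members clear acetaldehyde and products of lipid peroxidation, or act within folate, proline, fatty aldehyde and carnitine metabolism. In the lung, retinoic acid made by mesenchymal cells is known for its part in the formation of alveoli.

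The sequenced reads came from the 3′ ends of transcripts, and the deposited values are reads per gene. The libraries held 1344507 to 2369882 counts, so that 3 counts corresponded to 1.27 to 2.23 CPM, the count scaled to library size. Sh3pxd2a had 205, 190 and 284 counts in the wt libraries and 238, 258 and 260 in those labelled Tks5+/- (log2 fold change 0.29 ± 0.20 SE, adjusted p = 0.249), so the targeted gene was not lower. The study reports less Tks5 mRNA in Tks5+/- LFs than in wt LFs, measured separately by quantitative RT-PCR. The targeted exon lies upstream of the transcript's end, and whether reads from that end show its loss was not tested. The genotype is therefore written as labelled throughout. Calls of the markers that follow use the thresholds given further below. By these, 22.1% of all tested genes were called lower and 22.8% higher. Of 11 fibroblast markers, summing to 5025 to 9113 CPM per library, Col1a1 had 2970 to 6429 counts, while Tcf21, Lum and Pi16 had at most 33, and 5 were called higher (Thy1, Vim and Tcf21 among them) and 1 lower (Fn1, log2 fold change -1.55). Of 8 tested smooth muscle and pericyte markers, which summed to 4951 to 5950 CPM in wt and 6306 to 7240 CPM in the others, 5 were called lower (Cspg4 at -3.55, and Notch3, Des, Myh11 and Pdgfrb) and 2 higher, with Tagln at 1.99 and Acta2 not called. The 3′ end of Tagln is overlapped on the opposite strand by Pcsk7, which had 11964 counts in the 6 libraries. Since the strand used in counting is not given, the counts of Tagln are uncertain. Wt replicate 3 stood apart in macrophage markers, with a summed 1926 CPM over the 12 genes of the list against 359 and 320.5 CPM in the other wt libraries and 120 to 138 CPM in those labelled Tks5+/-. Among those 12 markers, 5 of 9 tested were called lower in the libraries labelled Tks5+/-, and Adgre1, Marco and Ptprc were at 0 in all of these. Endothelial markers summed to 115 to 146 CPM in wt and 45.6 to 60.4 CPM in the others, with 4 of 5 tested called lower and Pecam1 and Tek at 0 in the libraries labelled Tks5+/-. Mesothelial markers overlapped between the groups in summed level, at 54.7 to 80.1 CPM in wt and 9.21 to 87.3 CPM in the others, while 4 of 5 tested were called lower. The sum of 87.3 CPM, in labelled Tks5+/- replicate 1, held 70.2 CPM of Gpm6a alone. That gene was at 4.68 and 2.56 CPM in labelled Tks5+/- replicates 2 and 3. Of 9 epithelial markers Sftpc, Sftpa1, Sftpb and Scgb1a1 were at 0 in all 6 libraries, whereas Ager was called higher (20, 18 and 35 counts against 68, 103 and 57), Cldn4 lower (23, 15 and 50 against 0, 3 and 0) and Cdh1 had 17, 8 and 58 counts against 0 in each library labelled Tks5+/-. The list of sex and substrain genes had 2 of 3 tested called lower, the Y-linked Ddx3y (146, 159 and 210 counts against 25, 19 and 21) and the substrain gene Nnt (47, 89 and 107 against 36, 18 and 19), while the Y-linked Eif2s3y was not called (14, 13 and 35 against 26, 7 and 13, adjusted p = 0.688) and Xist was at 0 in all 6 libraries. For Nnt these are the counts of 1 of 2 overlapping gene entries, with 316 counts in the 6 libraries. The other entry had 311 counts and was left out. The part of all these differences in the results on aldehyde dehydrogenases was not tested, and in bulk RNA fewer cells of a type and less RNA per cell cannot be told apart.

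The sequences before the transcription starts are shown for Aldh1a1 and Aldh1a2, which catalyse the same reaction and differed in their fold change, and for Rarb, a nuclear receptor gene known as a direct target of retinoic acid. RefSeq (GRCm38.p6) gave a window for 6 of the 9 genes, and each window below holds the 250 bases before a start, in the direction of transcription. The positions are chr19:20492333-20492582 (+ strand) for the first start of Aldh1a1, chr19:20601718-20601967 (+ strand) for its second start, chr9:71215539-71215788 (+ strand) for Aldh1a2 and chr14:16575477-16575726 (- strand) for Rarb. Capitals mark the motifs described after the sequences.
Aldh1a1, start 1: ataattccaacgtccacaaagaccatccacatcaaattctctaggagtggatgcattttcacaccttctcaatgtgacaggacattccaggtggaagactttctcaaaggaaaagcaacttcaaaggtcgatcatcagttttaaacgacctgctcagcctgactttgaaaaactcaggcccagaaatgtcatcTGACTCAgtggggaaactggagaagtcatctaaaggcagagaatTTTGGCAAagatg
Aldh1a1, start 2: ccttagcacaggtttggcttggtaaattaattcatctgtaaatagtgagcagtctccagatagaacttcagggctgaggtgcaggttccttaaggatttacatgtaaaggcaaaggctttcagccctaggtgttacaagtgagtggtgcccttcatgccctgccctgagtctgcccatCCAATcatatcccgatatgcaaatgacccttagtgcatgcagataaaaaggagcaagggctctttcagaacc
Aldh1a2: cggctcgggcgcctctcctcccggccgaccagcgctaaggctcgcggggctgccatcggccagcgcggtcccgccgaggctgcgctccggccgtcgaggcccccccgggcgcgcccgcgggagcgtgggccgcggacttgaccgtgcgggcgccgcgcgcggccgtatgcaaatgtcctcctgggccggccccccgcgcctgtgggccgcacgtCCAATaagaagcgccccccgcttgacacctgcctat
Rarb: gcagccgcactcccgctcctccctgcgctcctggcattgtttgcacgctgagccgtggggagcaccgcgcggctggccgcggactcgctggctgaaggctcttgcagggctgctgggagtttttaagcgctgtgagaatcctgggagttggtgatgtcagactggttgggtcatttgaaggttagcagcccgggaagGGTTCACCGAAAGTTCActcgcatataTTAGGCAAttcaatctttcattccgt

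Motifs were searched on both strands of windows from 250 bases before to 50 bases after each start, over 32544 distinct windows of this length. The first Aldh1a1 start had an AP-1 site (TGACTCA, in 5.19% of all windows) 57 bases and a C/EBP site (TTGCNNAA, in 10.8%) on the opposite strand 13 bases before the start. The second Aldh1a1 start had a CCAAT box (CCAAT, in 37.4%) 72 bases before the start, and another 2 bases before it that runs past the printed window. Aldh1a2 had a CCAAT box 36 bases before its start, in a window of 77.6% G and C against 42.8% and 46.4% for the windows of Aldh1a1. In the Rarb window lay a retinoic acid response element with direct repeats of spacing 5, 53 bases before the start, a motif found in 32 windows (0.0983%), and a C/EBP site 26 bases before the start. None of the 6 genes' windows held this response element or a TATA box (TATAAA, in 13.6% of all windows). Crabp1 had an ATF4 composite site (TGATGNAA, in 3.91%) 134 bases before its start, on the opposite strand. These matches are descriptions of letters and were not tested as binding sites.

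In the comparison between genotypes, a gene was called at an adjusted p under 0.05 (edgeR's quasi-likelihood test, Benjamini-Hochberg over 10346 genes) and a fold change of at least 1.2. Log2 fold changes are those of the libraries labelled Tks5+/- relative to wt, so that negative values mean lower in Tks5+/-. Of the 8 tested genes, 3 were called lower (Aldh2, Aldh1a1 and Aldh1a3), where 22.1% of all tested genes were, and 1 was called higher (Aldh18a1), where 22.8% were. In either direction 4 of 8 were called against 44.9% of all tested genes, and CPM did not overlap between the groups for 4 of 8 (Aldh2, Aldh1a1, Aldh1a3 and Aldh1l2) against 53.8%. The median log2 fold change of the 8 was -0.42, beside -0.05 over all tested genes. When the libraries were scaled by their totals alone, the median over all tested genes was -0.47, and every fold change below is relative to the scaling by TMM that gave -0.05. That scaling by totals also moved the calls over all genes from 2286 lower and 2356 higher to 3944 lower and 1362 higher.

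**Figure D1:**
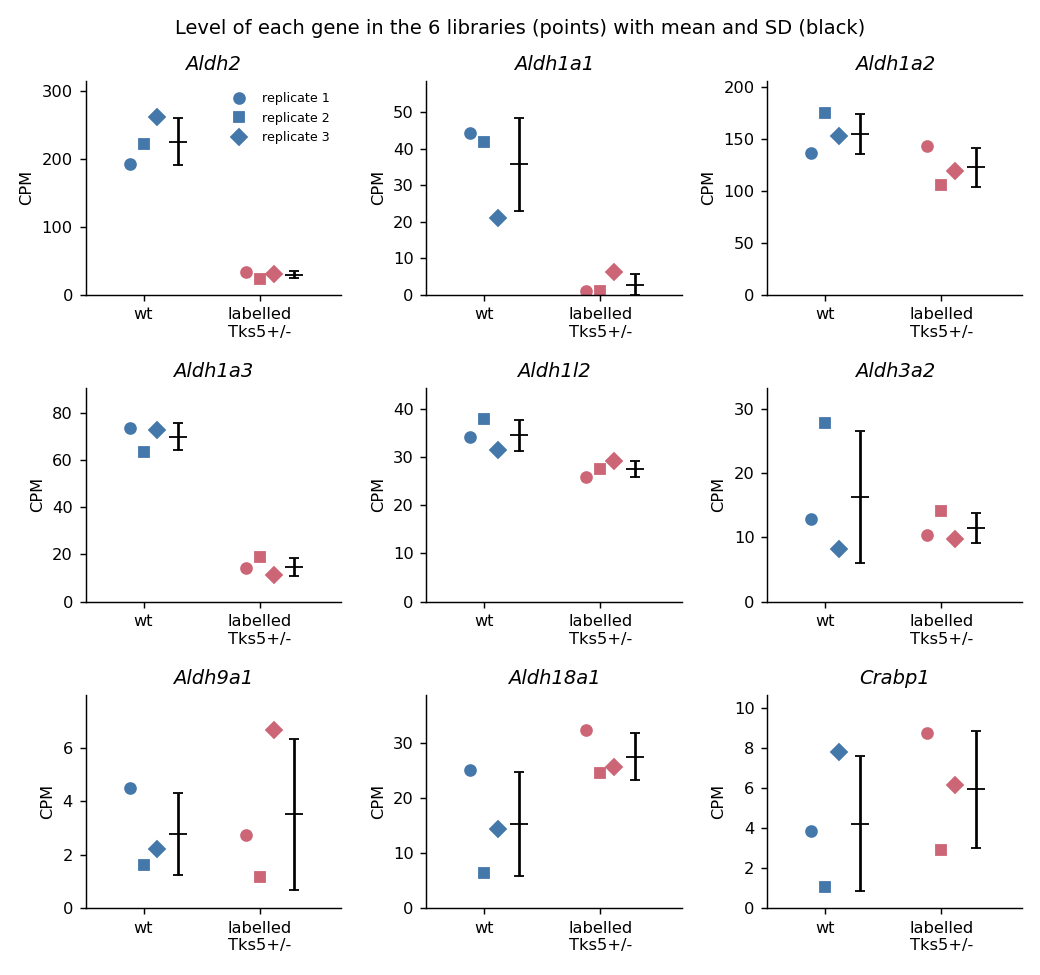
CPM (y axis, linear, from 0, TMM-scaled) of each of the 9 genes in the 3 wt libraries (blue) and the 3 libraries labelled Tks5+/- (red), with the marker shape giving the replicate and black marks the mean with its SD. Aldh2 lay between 192 and 262 CPM in wt and between 24.0 and 34.0 CPM in the others, and Aldh1a1 and Aldh1a3 were likewise separated, while Aldh1a2, Aldh3a2, Aldh9a1, Aldh18a1 and Crabp1 overlapped.

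Aldh2, the mitochondrial enzyme that oxidizes acetaldehyde and the lipid peroxidation product hydroxynonenal, lies on chromosome 5 (GRCm38 121566027 to 121593824, - strand). It had 299, 416 and 707 counts in the wt libraries and 62, 41 and 60 in those labelled Tks5+/-. That was 226 ± 35.0 CPM against 29.6 ± 5.11 CPM (SD, n = 3 per group). Every wt library exceeded every library labelled Tks5+/- by a wide margin, and the libraries of a group lay close together. The log2 fold change was -2.93 ± 0.23 (SE, 95% interval -3.41 to -2.45, adjusted p = 4.94e-09), or 7.62-fold lower. With wt replicate 3 left out it was -2.81, and over the 17 alternatives of test, scaling, filter, model and left-out library it lay between -3.34 and -2.75, called lower in all 17.

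Aldh1a1 and Aldh1a3, which both make retinoic acid from retinal, were lower as well. Aldh1a1 (chromosome 19, 20492715 to 20643465, + strand) had 69, 78 and 57 counts in wt and 2, 2 and 12 in the libraries labelled Tks5+/-. Labelled Tks5+/- replicate 3 was the highest of its group, and still below the lowest wt library at 6.14 against 21.1 CPM. The group means were 35.8 ± 12.7 CPM in wt and 2.80 ± 2.89 CPM in Tks5+/- (SD, n = 3 per group), the latter with 2 libraries under the 3-count floor. The log2 fold change of -3.58 ± 0.48 (SE, 95% interval -4.58 to -2.58, adjusted p = 9.72e-06) was the lowest among the tested Aldh genes. It was -4.85 without labelled Tks5+/- replicate 3 and -3.87 without wt replicate 3, and it was called lower in all 16 alternatives that gave a value. A requirement of at least 10 counts in every library removed the gene, since libraries labelled Tks5+/- fell under it. Aldh1a7, a near-copy of Aldh1a1, had 1 count in all, in wt replicate 2, and how the counting shared reads between such copies is not given in the sources used here, so the split between the pair is uncertain.

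Aldh1a3 (chromosome 7, 66390890 to 66427517, - strand) had 114, 118 and 196 counts in wt and 26, 32 and 22 in the libraries labelled Tks5+/-. On the CPM scale these were 69.7 ± 5.72 and 14.8 ± 3.76 (SD, n = 3 per group). The 3 wt libraries were nearly level after scaling, from 63.1 to 73.4 CPM, and none of the others passed 18.7 CPM. Its log2 fold change was -2.24 ± 0.25 (SE, 95% interval -2.77 to -1.72, adjusted p = 4.36e-07), -2.22 without wt replicate 3 and between -2.67 and -2.04 over 17 alternatives, all called lower.

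Aldh1a2, the retinal dehydrogenase best known from the embryo, was not called. It lies on chromosome 9 (71215789 to 71296243, + strand). Its counts were 212, 328 and 413 in wt and 261, 180 and 234 in the libraries labelled Tks5+/-, or 155 ± 19.6 against 123 ± 19.1 CPM (SD, n = 3 per group). Labelled Tks5+/- replicate 1 lay above wt replicate 1, at 143 against 136 CPM, so the groups overlapped. The log2 fold change of -0.34 ± 0.21 (SE) had a 95% interval of -0.76 to 0.09 (adjusted p = 0.190). With the authors' normalized counts in limma it was -0.59 (adjusted p = 0.0330) and with library totals alone -0.75 (adjusted p = 0.00667), both past the threshold, while the other 15 alternatives did not call it.

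Reads of the 3 retinal dehydrogenases together summed to 261 ± 17.6 CPM in wt and 140 ± 16.9 CPM in the libraries labelled Tks5+/- (SD, n = 3 per group), and their make-up differed. Aldh1a2 took 53.7% of these reads in wt replicate 1 (95% Wilson interval 48.7 to 58.5), 62.6% in replicate 2 (58.4 to 66.6) and 62.0% in replicate 3 (58.3 to 65.6). In the libraries labelled Tks5+/- it took 90.3% (86.4 to 93.2), 84.1% (78.6 to 88.4) and 87.3% (82.8 to 90.8). No interval of one group reached into those of the other. Aldh1a3 held 26.9 ± 3.84% in wt and 10.7 ± 3.69% in the others, and Aldh1a1 held 13.6 ± 4.58% and 2.03 ± 2.12% (SD, n = 3 per group). These are shares of reads from transcript ends, the intervals cover counting error only, and because the fold changes of the 3 genes were known beforehand the difference is a description with no test.

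**Figure D2:**
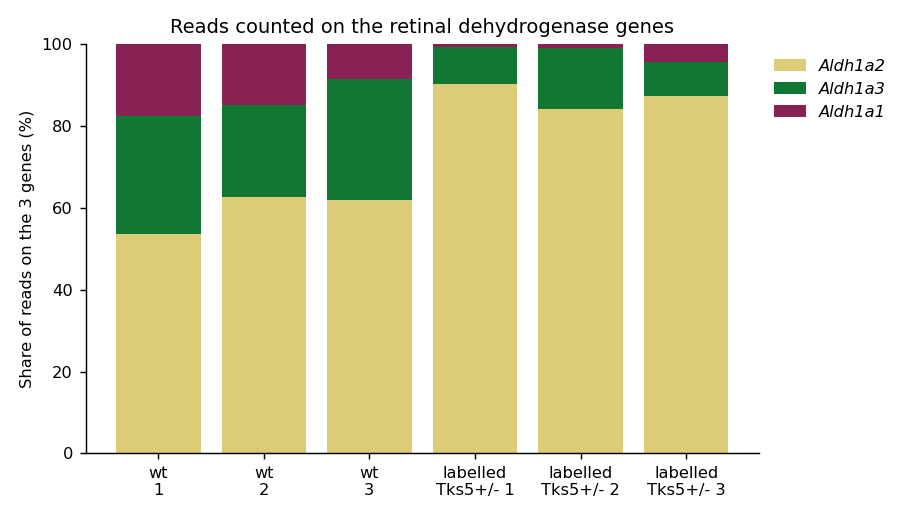
Share of the reads on Aldh1a1, Aldh1a2 and Aldh1a3 (y axis, percent, from 0) that fell on each gene, as 1 stacked bar per library. Aldh1a2 made up 53.7% to 62.6% in the wt libraries and 84.1% to 90.3% in those labelled Tks5+/-.

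Crabp1, which holds retinoic acid in the cytosol, was near the limit of detection. It had 6, 2 and 21 counts in wt and 16, 5 and 12 in the libraries labelled Tks5+/- (chromosome 9, 54764748 to 54773110, + strand). Libraries of both groups were spread over the same range. The log2 fold change of 0.40 ± 0.55 (SE) had a 95% interval of -0.74 to 1.54 (adjusted p = 0.579), so a difference was not detectable at this depth.

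Among the other genes, Aldh18a1 alone was called higher, and only just. Aldh18a1 makes the precursor of proline from glutamate. It lies on chromosome 19 (40550257 to 40588463, - strand) and had 39, 12 and 39 counts in wt and 59, 42 and 50 in the libraries labelled Tks5+/-. After scaling, wt replicate 1 (25.1 CPM) lay above the lowest library labelled Tks5+/- (24.6 CPM), and wt replicate 2 was far below both at 6.42 CPM. The log2 fold change was 0.87 ± 0.35 (SE, 95% interval 0.15 to 1.59, adjusted p = 0.0457). Over the 17 alternatives it stayed positive, from 0.45 to 1.35, but 9 did not call it. It was 0.51 (adjusted p = 0.258) without wt replicate 2 and 1.35 (adjusted p = 0.00542) without wt replicate 1, it was also lost without wt replicate 3 or any 1 library labelled Tks5+/-, and DESeq2 gave 0.88 with an adjusted p of 0.128.

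Aldh1l2, Aldh3a2 and Aldh9a1 gave no call. Aldh1l2, the mitochondrial enzyme that oxidizes formyltetrahydrofolate (chromosome 10, 83487450 to 83534140, - strand), had 53, 71 and 85 counts in wt and 47, 47 and 57 in the libraries labelled Tks5+/-. CPM were 31.5 to 38.0 in wt and 25.8 to 29.2 in the others, without overlap, and yet the log2 fold change of -0.32 ± 0.24 (SE, 95% interval -0.82 to 0.18) did not pass (adjusted p = 0.284). With library totals alone it passed at -0.75 (adjusted p = 0.0154), and with a correction for transcript length, the longest transcript of Aldh1l2 being 6027 bases, it was 0.11. The 3′ end of Aldh1l2 overlaps that of D10Wsu102e on the opposite strand, which had 657 counts in the 6 libraries, and since the strand used in counting is not given in the sources used here its counts are uncertain.

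Aldh3a2, the fatty aldehyde dehydrogenase of the endoplasmic reticulum (chromosome 11, 61223417 to 61267464, - strand), had 20, 52 and 22 counts in wt and 19, 24 and 19 in the libraries labelled Tks5+/-. Wt replicate 2 was the high library, and the rest overlapped. The log2 fold change was -0.49 ± 0.40 (SE, 95% interval -1.31 to 0.32, adjusted p = 0.320), and it was 0.14 without wt replicate 2. Aldh9a1, which acts in carnitine synthesis (chromosome 1, 167349991 to 167368532, + strand), had 7, 3 and 6 counts in wt and 5, 2 and 13 in the others. These were too few for a test.

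**Figure D3:**
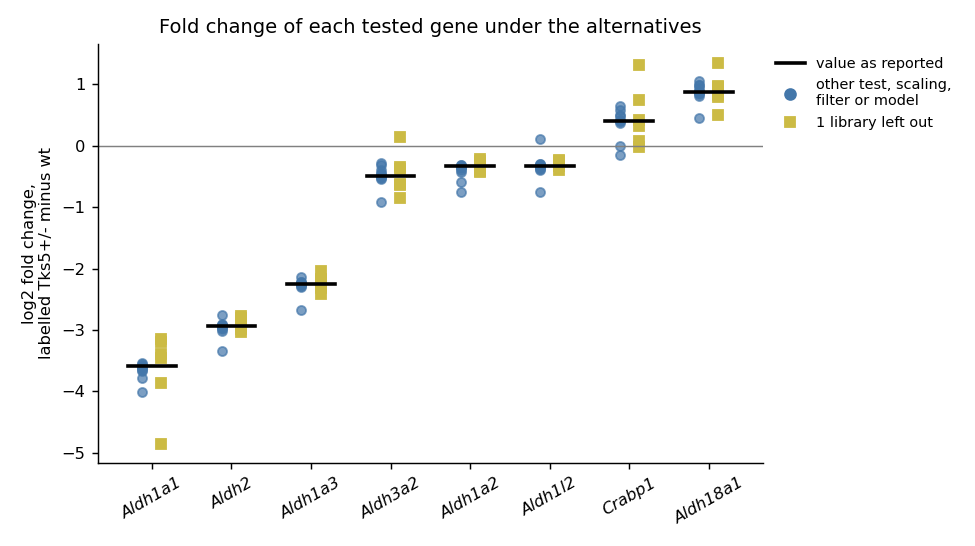
Log2 fold change, labelled Tks5+/- minus wt (y axis), of the 8 tested genes as reported (black line), under other tests, scalings, filters and models (blue) and with 1 library left out (yellow). Aldh2, Aldh1a1 and Aldh1a3 stayed below -2 in all, Aldh18a1 stayed above 0, and Aldh3a2, Aldh1l2 and Crabp1 crossed 0.

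The family was then taken whole, including all the selected genes except Crabp1. The calls of Aldh2, Aldh1a1, Aldh1a3 and Aldh18a1 are thus counted again here. Of 21 mouse Aldh genes, 19 had a count, 13 were tested, 6 were called lower and 1 higher (22.1% and 22.8% of all tested genes), with a median log2 fold change of -0.49. Aldh3a1 and Aldh3b2 were at 0 in all libraries. Besides Aldh2, Aldh1a1 and Aldh1a3, those called lower were Aldh16a1 (18, 40 and 27 counts against 6, 5 and 13, log2 fold change -1.70 ± 0.44 SE, adjusted p = 0.00336), Aldh1l1 (30, 16 and 49 against 18, 10 and 5, -1.34 ± 0.44, adjusted p = 0.0160) and Aldh4a1 (127, 159 and 247 against 89, 35 and 85, -1.19 ± 0.26, adjusted p = 6.95e-04). Aldh4a1, which completes the breakdown of proline to glutamate, did not overlap between groups. Aldh1l1, the cytosolic counterpart of Aldh1l2, overlapped and lost its call in 5 of 16 alternatives, DESeq2 among them (adjusted p = 0.0742), and was -0.92 (adjusted p = 0.0993) without labelled Tks5+/- replicate 3 and -1.18 (adjusted p = 0.0573) without wt replicate 3, with wt replicate 1 and labelled Tks5+/- replicate 2 the other libraries whose loss ended the call. Aldh1b1 (-0.09 ± 0.43), Aldh5a1 (0.59 ± 0.43) and Aldh7a1 (0.21 ± 0.28), mitochondrial or cytosolic enzymes of other aldehydes, were not called. Aldh5a1 passed at 1.04 (adjusted p = 0.0309) without labelled Tks5+/- replicate 2.

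**Figure D4:**
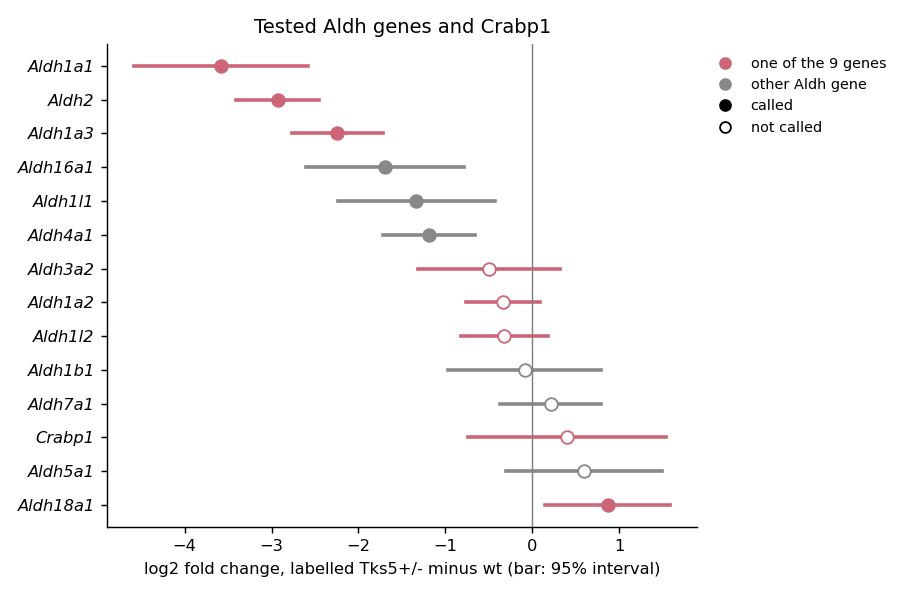
Log2 fold change, labelled Tks5+/- minus wt (x axis), with its 95% interval for the 13 tested Aldh genes and Crabp1, in which red marks the 8 tested genes described here, grey the other family members, and filled points genes called. The 6 filled points on the left run from Aldh1a1 at -3.58 to Aldh4a1 at -1.19, and Aldh18a1 at 0.87 is the only filled point on the right.

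The enzymes before and after the retinal dehydrogenases were counted next. Of 7 tested oxidoreductases that interconvert retinol and retinal or act on related substrates, 5 were called higher and 0 lower, where 22.8% and 22.1% of all tested genes were, with a median log2 fold change of 0.80. Rdh10, the main retinol dehydrogenase of the embryo, had 18, 21 and 36 counts in wt and 40, 41 and 43 in the libraries labelled Tks5+/- (0.90 ± 0.29 SE, adjusted p = 0.0153). Dhrs3, which returns retinal to retinol and is induced by retinoic acid, had 141, 154 and 89 against 274, 226 and 236 (0.99 ± 0.29, adjusted p = 0.00972). In both genes every library labelled Tks5+/- was above every wt library. For Dhrs3, wt replicate 3 was the lowest library, at 33.0 CPM against 90.8 and 82.4 CPM in the other wt libraries. With 1 library left out, the log2 fold change of Dhrs3 lay between 0.63 and 1.24 (adjusted p at most 0.0450). Rdh13 (0.80 ± 0.30), Rdh14 (0.70 ± 0.26) and Adh5 (1.33 ± 0.23, adjusted p = 5.79e-05), which also clears formaldehyde, were the others called, and Rdh11 (0.16 ± 0.22) and Dhrs4 (-0.24 ± 0.24) were not. Dhrs4 was called lower with library totals alone (-0.67) and with the length correction (-0.62). With library totals alone Rdh10, Rdh13, Rdh14 and Dhrs3 lost their calls at 0.47, 0.38, 0.27 and 0.57, Rdh10, Rdh13 and Rdh14 also lost theirs under DESeq2, and leaving out wt replicate 3 or labelled Tks5+/- replicate 3 ended the calls of Rdh13 (0.55 and 0.64) and Rdh14 (0.55 and 0.73). Leaving out wt replicate 2 ended those of Rdh10 (0.84) and Rdh14 (0.60), and leaving out labelled Tks5+/- replicate 2 that of Rdh14 (0.64). The length correction ended the call of Rdh14 (0.36, adjusted p = 0.280), and testing without a filter on low counts that of Rdh13 (adjusted p = 0.0538).

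Cyp26b1, which hydroxylates retinoic acid, had 39, 39 and 16 counts in wt and 79, 63 and 130 in the libraries labelled Tks5+/- (1.57 ± 0.41 SE, adjusted p = 0.00795). Its groups did not overlap, and it was the one tested gene of 3 on the list, with Cyp26c1 at 0 and Cyp26a1 at 1 count. Wt replicate 3 was the lowest library of Cyp26b1, at 5.93 CPM against 25.1 and 20.9 CPM in the other wt libraries. With 1 library left out, the log2 fold change of Cyp26b1 lay between 1.09 and 1.93 (adjusted p at most 0.0297). Of 4 tested genes for uptake, binding and storage, edgeR and DESeq2 each called 0 (1, Fabp5, at an unadjusted p under 0.05 in edgeR), with a median of 0.35. Fabp5 (0.55 ± 0.23, adjusted p = 0.0529, and past the threshold at 0.73 or 0.71 without labelled Tks5+/- replicate 1 or 3), Crabp2 (0.26 ± 0.32), Crabp1 and Dgat1 (0.31 ± 0.23) did not pass, and Stra6, Rbp2 and Lrat were at 0 in all libraries. Fabp5 also passed with RLE scaling (0.59) and with the length correction (0.63).

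Of 7 tested receptors and corepressors, 3 were called lower and 0 higher, beside 22.1% and 22.8% of all tested genes (median -0.46). The shared receptor partner Rxra had 58, 39 and 117 counts in wt and 29, 15 and 38 in the libraries labelled Tks5+/- (2.29-fold lower, adjusted p = 0.00426). Rxra and the corepressors Ncor1 (-1.03 ± 0.25 SE) and Nrip1 (-1.32 ± 0.47) did not overlap between groups. A correction for transcript length ended the calls of Ncor1 (-0.41) and Nrip1 (-0.78), and Nrip1 also lost its call under DESeq2 and with any 1 library left out except labelled Tks5+/- replicate 3 (-1.36 to -1.17). Rarb, whose window with the response element is printed above, had 128, 202 and 206 counts in wt and 118, 96 and 141 in the others. Its CPM did not overlap, and its log2 fold change of -0.46 ± 0.22 (SE, adjusted p = 0.0870) did not pass, except with the authors' normalized counts (-0.58) or library totals alone (-0.88). Because the strand of counting is not given, reads of Rarb and Ncor1, like those of Tgm2, Shmt2, Sphk2 and Far2 below, may also come from genes that overlap their 3′ ends on the opposite strand (Top2b and Ttc19 for Rarb and Ncor1). Rarg (0.49 ± 0.36), Rxrb (0.07 ± 0.31) and Ppard (-0.02 ± 0.31) were not called.

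Over 6 tested genes known to be induced by retinoic acid, 2 were called higher (Cyp26b1 and Dhrs3), 1 lower (Nrip1) and 3 not, with a median of 0.31 and 44.9% of all tested genes called in either direction. The last group held Rarb, Crabp2 and Tgm2 (0.35 ± 0.22 SE). The list thus had calls in both directions.

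**Figure D5:**
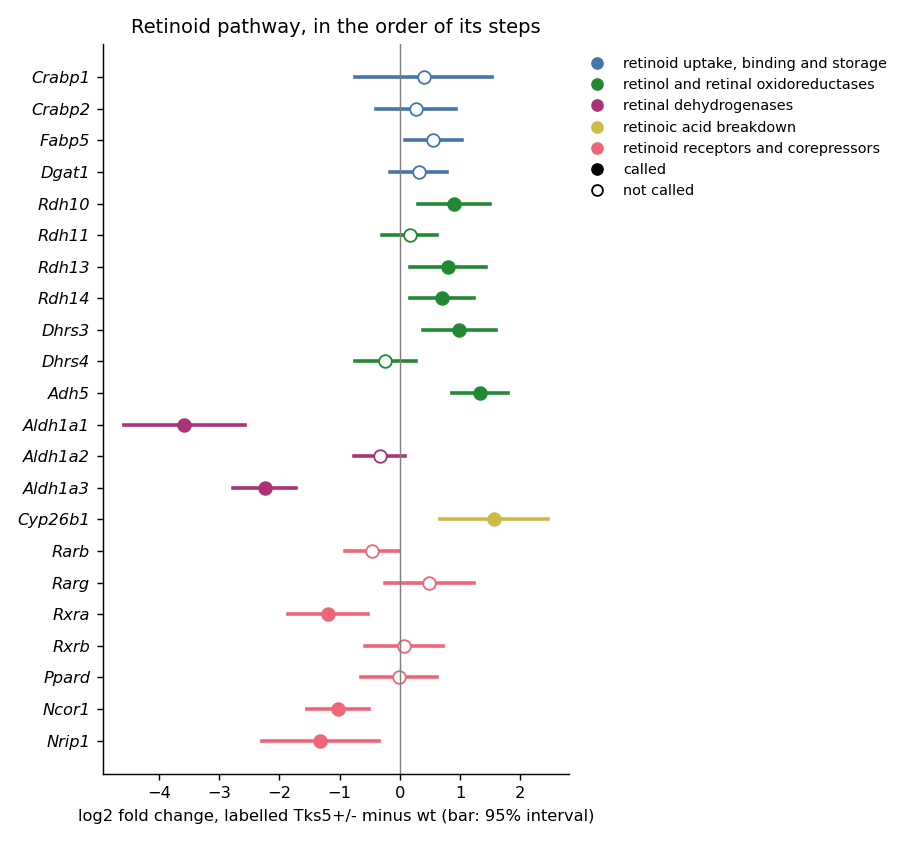
Log2 fold change, labelled Tks5+/- minus wt (x axis), with its 95% interval for tested genes of the retinoid pathway from carriers (top) to receptors and corepressors (bottom), with filled points for genes called. The called oxidoreductases lie between 0.70 and 1.33, Cyp26b1 at 1.57, and Aldh1a1 and Aldh1a3 at -3.58 and -2.24.

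The partners of the other enzymes were counted from lists of the same kind. Of the 5 tested genes of proline and glutamate semialdehyde metabolism reported here, 3 were called higher and 2 lower (22.8% and 22.1% of all tested genes). With Aldh18a1 the higher ones were Oat, which makes the same semialdehyde from ornithine (236, 231 and 244 counts against 439, 554 and 525, 1.19 ± 0.22 SE, adjusted p = 1.49e-04), and Pycrl, a reductase that forms proline (0.99 ± 0.30). Pycr1, the mitochondrial reductase of that last step, was lower with Aldh4a1 (63, 61 and 108 against 31, 29 and 55, -0.86 ± 0.27, adjusted p = 0.0119), though DESeq2 did not call Pycr1 and its call was lost without labelled Tks5+/- replicate 1 (-0.68) or 2 (-0.70). Pycrl was not called without wt replicate 3 (0.76), with library totals alone (0.57) or with the length correction (0.59). The 3′ end of Oat is overlapped on the same strand by Fgfr2, which had 282 counts in the 6 libraries, so the counts of Oat are uncertain.

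In folate one-carbon metabolism, 3 of 12 tested genes were called higher and 1 lower (median 0.57), and the 4 called genes are to be read against 44.9% of all tested genes, of which 22.8% were higher. Mthfd2 (154, 197 and 206 against 315, 231 and 388, 0.86 ± 0.22 SE, adjusted p = 0.00262) and Shmt2 (0.69 ± 0.22), which like Aldh1l2 act in mitochondria, and Tyms (1.05 ± 0.24), which makes thymidylate, were higher, and Aldh1l1 was lower. Mthfd2 and Shmt2 were not called with library totals alone (0.44 and 0.28), nor Shmt2 without wt replicate 2 (0.68). The list of 16 genes of the ATF4 amino acid response, to which Aldh1l2 and Aldh18a1 belong, had 6 called higher and 4 lower (median 0.19), beside 22.8% and 22.1% of all tested genes. The serine synthesis genes Psph (2.32 ± 0.23, adjusted p = 8.62e-08) and Psat1 (1.71 ± 0.23) were higher, whereas the cystine transporter Slc7a11 (26, 35 and 125 counts against 3, 5 and 4, -3.64 ± 0.47, adjusted p = 2.71e-06), Sesn2 (-1.47 ± 0.36) and Atf5 (-1.22 ± 0.21) were lower. Without wt replicate 3, which had the most Slc7a11 counts and the most macrophage marker reads, Slc7a11 was -2.98, still called lower.

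Around Aldh3a2 and Aldh9a1, 2 of 8 tested genes of fatty aldehyde, sphingolipid and carnitine metabolism were called lower and 0 higher (median -0.07), a share near the 22.1% of all tested genes called lower. These were Sgpl1, whose product is a fatty aldehyde handled by Aldh3a2 (495, 552 and 746 counts against 286, 341 and 312, -0.79 ± 0.20 SE, adjusted p = 0.00282), and Far1, which reduces fatty acyl-CoA to fatty alcohol (-1.29 ± 0.27). Far2 (0.54 ± 0.24), Sgms1 (0.44 ± 0.28), Phyh (0.17 ± 0.29), Sphk1 (-0.07 ± 0.26) and Sphk2 (-0.07 ± 0.22) were not called, although Far2 passed without wt replicate 3 (0.73) or with the length correction (0.65), and Sgms1 without labelled Tks5+/- replicate 1 (0.80). Of 12 tested enzymes that clear aldehydes outside the Aldh family, 5 were called higher and 0 lower (median 0.61), where 22.8% and 22.1% of all tested genes were. Esd, which completes the clearance of formaldehyde begun by Adh5, had 480, 546 and 1007 counts in wt and 1215, 1778 and 1734 in the others (1.41 ± 0.22, adjusted p = 1.87e-05), and the carbonyl reductase Cbr1 rose by 1.16 ± 0.23 (adjusted p = 3.31e-04).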

How the data were processed

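RNA of primary mouse LFs from 3 wt and 3 Tks5+/- libraries was sequenced from transcript ends (QuantSeq, Ion Torrent). The deposited raw counts per gene were made by the authors, whose processing notes name Trim Galore, HISAT2, Bowtie2 and GRCm38. The strand used in counting is not given in the sources used here. The deposited normalized counts were made by the authors with EDASeq, were rounded to whole numbers and are treated as a score. Sorted, these values are identical in all 6 libraries, and they served only as an alternative. Of 55364 genes listed, 55104 matched the annotation.

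Raw counts were tested with the robust quasi-likelihood F test of edgeR 4.0.16 (R 4.3.3), after filterByExpr and TMM scaling, over 10346 genes, after a check of the script on simulated data. CPM were computed from TMM-scaled totals. DESeq2 1.42.0 and limma 3.58.1 gave alternatives, and the study's own combination of tests was not run. Groups were compared without a replicate block. Alternatives were other tests, scalings and filters on low counts, a loess correction for transcript length, the block, and each library left out. Members and gene lists were chosen with earlier results of these data known. Some genes of the lists are not reported here and were left out of the lists' counts and medians. Named were all 9 members, every other tested Aldh gene, every tested gene of lists with up to 8 tested genes and otherwise the 3 called lower and the 3 called higher with the smallest adjusted p, Sh3pxd2a, the most abundant and absent markers, and genes most alike in pattern. Promoter sequences came from RefSeq. A total of 1344507 to 2369882 counts per library limits precision for low genes.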

Additional observations from a re-analysis of the deposited data

How the results depend on the processing

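Over all tested genes, 3705 to 5306 genes were called under the alternatives, against 4642. The count of the 9 genes called lower was 3, and it was 5 with library totals alone, 4 with the authors' normalized counts, 2 with at least 10 counts in every library and 3 under every other alternative. The count called higher was 1, and it was 0 under DESeq2, upper-quartile scaling, library totals alone and at least 10 counts in every library, and 0 to 1 with each library left out. Called Aldh genes numbered 7, and 3 with at least 10 counts in every library, a filter that removes low genes, 5 under DESeq2, 6 with upper-quartile scaling, 8 with the authors' normalized counts or library totals alone, 7 under the other alternatives and 5 to 6 with each library left out. The causes of the other changes were not tested. With the replicate number as a block, 4668 genes were called, 3 members lower, 1 higher and 7 family genes. Between libraries with the same number, deviations of log2 CPM from the group means correlated at -0.00101, -0.0637 and 0.082. With 3 libraries per group this cannot show whether the numbers pair the libraries, and the replicate block is an alternative only. Of 134 values of the members under alternatives, 117 kept their direction and call, 9 lost the call, 3 gained it and 5 changed sign. Of 775 values of other named genes these numbers were 689, 39, 13 and 34. Every value that changed sign belonged to a gene not called. With library totals alone these were Crabp1 -0.0028, Aldh7a1 -0.20, Crabp2 -0.16, Dgat1 -0.12, Rdh11 -0.26, Rxrb -0.34, Tgm2 -0.053, Sgms1 -0.0072, Phyh -0.24 and Sh3pxd2a -0.13. With the length correction they were Aldh1l2 0.11, Crabp1 -0.15, Crabp2 -0.28, Ppard 0.14, Sphk1 0.14, Sphk2 0.053 and Phyh -0.18. With the authors' normalized counts they were Aldh1b1 0.13, Rdh11 -0.0031, Ppard 0.25, Tgm2 -0.044 and Sphk1 0.066. For Ppard DESeq2 gave 0.0090 and RLE scaling 0.010. With 1 library left out, values ranged from -0.86 to 0.14 for Aldh3a2, -0.026 to 1.31 for Crabp1, -0.62 to 0.24 for Aldh1b1, -0.12 to 0.29 for Rxrb, -0.15 to 0.17 for Ppard, -0.24 to 0.072 for Sphk1 and -0.20 to 0.097 for Sphk2. Sh3pxd2a was called higher with the length correction, at 1.00.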

Other observations

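Over the 6 libraries, the tested genes whose log2 CPM (prior count 2) followed Aldh1a1 most closely were Ghr, the growth hormone receptor (Pearson's r = 0.998), the focal adhesion gene Tln2 (r = 0.996) and Ggnbp1 (r = 0.996). Ghr had 143, 164 and 166 counts in wt and 34, 28 and 65 in the libraries labelled Tks5+/-. For Aldh18a1 they were Nudt7 (r = 0.993), Gm13509 (r = 0.990) and Nap1l4 (r = 0.978). The 3 had log2 fold changes of 0.48, 1.19 and 0.44. These are the highest of 10346 genes ranked over 6 points that share the genotype groups and the library scaling, and are given as a description with no test.

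Rbp4, the plasma carrier of retinol, was too low for a test and uneven, with 3, 1 and 2 counts in the wt libraries and 41, 5 and 1 in those labelled Tks5+/-. Labelled Tks5+/- replicate 1 also held the most counts of the mesothelial marker Gpm6a, at 128 against 5 to 61 in the other 5 libraries.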
